A study of Rattus norvegicus with 9 samples.

Results

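The 10 genes described here encode 3 bone morphogenetic protein (BMP) ligands, Bmp2, Bmp4 and Bmp7, 3 BMP receptors, Bmpr1a, Bmpr1b and Bmpr2, and the 4 inhibitors of DNA binding, Id1, Id2, Id3 and Id4. They were chosen by symbol from 32883 annotated genes, each symbol matched 1 gene, and all 10 were among the 15517 genes with enough counts to be tested. The comparisons ask how their transcripts changed in rats given the ototoxic nitrile IDPN (3,3′-iminodipropionitrile), and whether the Id genes went the way of Bmp2.

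RNA was sequenced from the vestibular epithelium of male Long-Evans rats, 1 library per rat, each a pool of the cristae and utricles of 1 animal. Control rats drank plain water. IDPN-3wk and IDPN-7wk rats had 20 mM IDPN in their drinking water for 3 and 7 weeks. Each group held 3 rats, and the same control rats, some killed with each IDPN group (which ones is not given in the sources used here), served both comparisons. Levels are given as CPM, read counts divided by the library size after scaling by the trimmed mean of M-values. They are not divided by gene length, so they are compared between libraries and not between genes.

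BMP ligands bind a pair of type I and type II serine/threonine kinase receptors at the cell surface, which phosphorylate Smad1, Smad5 and Smad9. These enter the nucleus with Smad4 and activate target genes, among which the Id genes are the usual readout. Id proteins lack a DNA-binding region and hold E proteins in dimers that cannot bind the E-boxes used by basic helix-loop-helix (bHLH) factors such as Atoh1, the factor that specifies hair cells (HCs). In the inner ear, BMP signaling is known from the patterning of the sensory patches and from the differentiation of HCs.

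Of the 10 genes, 7 had a promoter window in the RefSeq table used, on build GRCr8, with 250 bases before and 50 after an annotated transcription start. No window was held for Bmp2. The 180 bases before the starts of the 4 Id genes, the readout compared with Bmp2, are therefore shown instead. Capitals mark TATAAA and CCAAT letters on either strand.
Id1, chr3:161671384-161671563, plus strand: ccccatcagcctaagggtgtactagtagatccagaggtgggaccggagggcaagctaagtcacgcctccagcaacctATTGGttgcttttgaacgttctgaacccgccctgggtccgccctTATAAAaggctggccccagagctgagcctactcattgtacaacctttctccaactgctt
Id2, chr6:47470996-47471175, minus strand: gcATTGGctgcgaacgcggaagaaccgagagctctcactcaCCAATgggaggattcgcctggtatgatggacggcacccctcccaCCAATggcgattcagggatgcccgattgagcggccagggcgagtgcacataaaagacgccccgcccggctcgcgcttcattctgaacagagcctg
Id3, chr5:153656111-153656290, plus strand: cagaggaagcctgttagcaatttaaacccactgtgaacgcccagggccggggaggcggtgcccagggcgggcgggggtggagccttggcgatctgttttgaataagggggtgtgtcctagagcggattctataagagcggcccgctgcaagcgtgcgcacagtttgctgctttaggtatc
Id4, chr17:16598294-16598473, minus strand: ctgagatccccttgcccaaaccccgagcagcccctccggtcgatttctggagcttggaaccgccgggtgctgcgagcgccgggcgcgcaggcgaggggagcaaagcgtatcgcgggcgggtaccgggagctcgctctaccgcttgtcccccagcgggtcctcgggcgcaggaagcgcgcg
The windows of Id1 and Id2 held CCAAT letters, found in 37.5% of the 33469 promoters of the table, and that of Id1 also held TATAAA, found in 14.2%. Id3 and Id4 held neither.

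A pair of Smad motifs and 1 form of the E-box were searched on both strands in the full windows of 300 bases. GGCGCC, the GC-rich letters bound by Smad1 and Smad5, was present in 1 of the 7 member windows, that of Id4, and in 11.0% of all promoters. It lay after the start, in chr17:16598244-16598271 on the minus strand, with the match in capitals.
Id4, bases 23 to 50 after the start: gcccctctggccgcaaGGCGCCgtcggg
CAGAC, the Smad box, occurred in the windows of Id1 and Bmp4 and in 50.1% of all promoters. CACGTG, an E-box form other than those E proteins are best known to bind, occurred in that of Bmp4 and in 6.42% of all promoters. No matches in these windows overlapped. Bases outside these windows were not searched, so a gene without a match here may have 1 elsewhere. The table held no window for Bmp2, Bmp7 or Bmpr1b.

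The libraries held 31100118 to 46018385 counts. A set of 3 libraries stood apart: thinned to equal depth, control 3, IDPN-3wk 1 and IDPN-3wk 2 had counts for 15387 to 15498 genes, against 16834 to 17312 in the other 6. Their library names follow one another in the labels, and no label calls them a batch. The sample titles also carry a code whose meaning is not given in the sources used here: all control rats share 1 code that no IDPN rat has, so this code and treatment cannot be told apart, while IDPN-3wk 1 and IDPN-7wk 1 share another. Of the 15517 genes, 5.34% were lower and 4.97% higher in every library of this set than in every other library. The set took 1 control, 2 IDPN-3wk and 0 IDPN-7wk rats, so results that rest on it are given with and without it. Summed over 10 HC markers, control rats had 2259 to 2712 CPM, IDPN-3wk rats 1058 to 1424 and IDPN-7wk rats 1082 to 1206. By the rule for differential expression given below, 3 and 7 of the 10 were downregulated at 3 and 7 weeks. Of all genes tested 1.21% and 3.13% were. The 8 supporting cell markers summed to 12485 to 12957, 7515 to 9423 and 4978 to 7257 CPM in the same order. This sum rests largely on 1 gene, Otog, at a mean of 8473 of the 12674 CPM in control rats. Of the 7 supporting cell markers tested, 0 were downregulated at 3 weeks and 3 at 7 weeks, beside the same shares of all genes. The middle of their fitted log2 values was −0.34 at 3 weeks and −0.78 at 7 weeks.

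Among the ligands, Bmp2 fell at both times, and Bmp4 and Bmp7 did not pass the test at either. Bmp2, a ligand best known for inducing bone, stood at 39.8, 40.0 and 49.4 CPM in the 3 control rats, 10.7, 17.9 and 14.0 CPM in the IDPN-3wk rats and 7.66, 7.69 and 8.68 CPM in the IDPN-7wk rats. The 3 groups did not overlap, and the lowest control value was above the highest IDPN value at either time. Group means were 43.1 ± 5.50, 14.2 ± 3.62 and 8.01 ± 0.584 CPM (SD, n = 3 rats each). The log2 fold change came to −1.60 (SE 0.211) at 3 weeks, 0.330 of the control level, and −2.43 (SE 0.217) at 7 weeks, 0.186 of it, with adjusted p = 0.00612 and 0.000221 in edgeR's quasi-likelihood test. In bulk tissue, fewer cells that express a gene and less of its RNA per cell cannot be told apart.

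Genes that changed more than 1.5-fold and had an adjusted p below 0.05 were called differentially expressed (DEGs). By this rule 1 of the 10 genes, Bmp2, was called at 3 weeks, where 1.65% of all genes tested were called, and the same gene alone was called at 7 weeks, where the share over all genes was 5.13%. Bmp2 held its call in all 16 alternative settings, with log2 fold changes of −1.80 to −1.43 at 3 weeks and −2.49 to −2.32 at 7 weeks. The fall was of like size within the sets of libraries: at 3 weeks −1.76 among the libraries with fewer detected genes and −1.45 among the others, and at 7 weeks −2.18 among the others, as differences of mean log2(CPM + 1).

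From 3 to 7 weeks Bmp2 changed by a further −0.83 on the log2 scale (SE 0.210, 95% interval −1.29 to −0.36). The IDPN-7wk rats were all below the IDPN-3wk rats, but the adjusted p was 0.139 in edgeR's quasi-likelihood test, while DESeq2 gave 0.0135 and called it. The HC and supporting cell sums were, like Bmp2, lower in all 6 IDPN rats than in any control rat. From 3 to 7 weeks the HC sum did not separate as Bmp2 did. The IDPN-7wk rats, at 1082 to 1206 CPM, lay within the IDPN-3wk range of 1058 to 1424. The supporting cell sum was lower at 7 weeks, 4978 to 7257 CPM against 7515 to 9423 at 3 weeks. Of the 7 supporting cell markers tested, 2 were lower at 7 than at 3 weeks without overlap, where 8.92% of all genes were. Otog, the largest part of the sum, overlapped. At 7 weeks 5 of 5 Schwann cell markers were lower without overlap (summed mean 9297 CPM in control and 4978 in IDPN-7wk rats). Their sum was 2855 CPM in IDPN-7wk 1, 5961 in IDPN-7wk 2 and 6117 in IDPN-7wk 3. Likewise 6 of 6 macrophage markers were higher without overlap (62.8 and 134 CPM). Over all genes 17.1% were lower and 17.2% higher without overlap. EdgeR called 2 of the 5 Schwann cell markers and 0 of the 6 macrophage markers at 7 weeks, where 5.13% of all genes were called. Against the sum of the 10 HC markers, Bmp2 was lower by 0.68 on the log2 scale in IDPN-3wk rats and by 1.32 in IDPN-7wk rats, while the sum itself was lower by 0.95 and 1.10. Ptprq and Otof made up 68.0% of the control sum, and over the 10 HC markers the median fitted log2 change was smaller, −0.37 at 3 weeks and −1.01 at 7 weeks. This ratio was chosen after the values were seen and has no test, and the part of any of these cell types in the fall of Bmp2 was not tested. Its lowest control value, −6.08, was above its highest IDPN-3wk value, −6.24, so the groups did not overlap on this scale either.

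**Figure D1:**
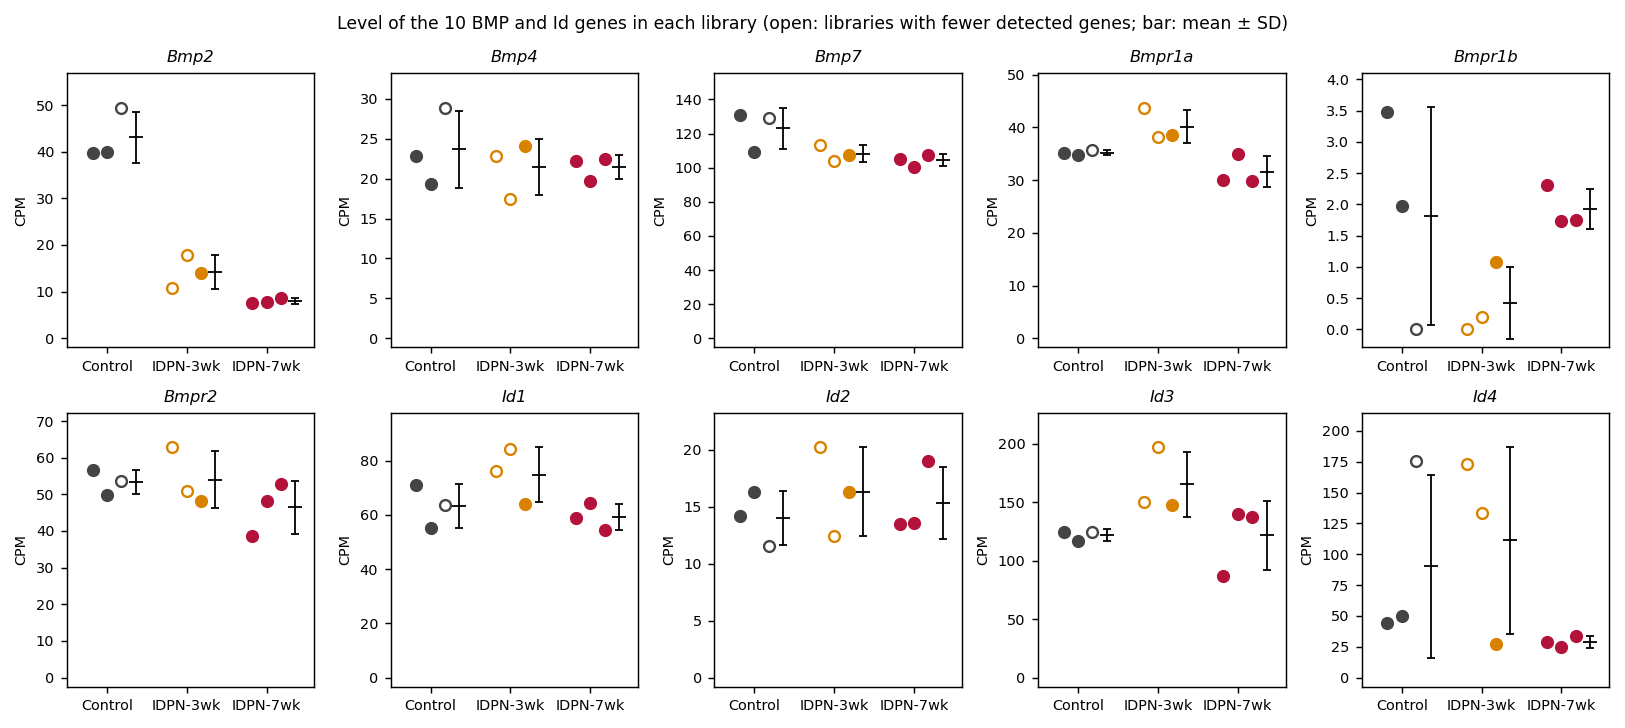
Level (CPM, linear axis) of each of the 10 genes in the 9 libraries, by group, with open circles for the 3 libraries with fewer detected genes and bars for mean ± SD of the 3 rats. Bmp2 is the gene whose 3 groups separate in steps, from 39.8 CPM or more in control rats to 8.68 CPM or less in IDPN-7wk rats, and the open circles of Id4 and Bmpr1b lie apart from the filled ones.

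Bmp4, the ligand that marks sensory patches in the developing ear, was at 22.8, 19.3 and 28.9 CPM in control rats, 22.9, 17.4 and 24.0 in IDPN-3wk rats and 22.2, 19.7 and 22.4 in IDPN-7wk rats. The groups overlapped throughout, and the highest library was control 3. Its log2 fold changes were −0.14 at both times, with 95% intervals of −0.58 to 0.30, so that a change as large as that of Bmp2 lay outside both. Without the 3 libraries with fewer detected genes the values were 0.19 and 0.02.

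Bmp7, a ligand needed for eye and kidney development, was at 131, 109 and 129 CPM in control rats, 113, 104 and 107 in IDPN-3wk rats and 105, 100 and 108 in IDPN-7wk rats. The IDPN-7wk rats were all below the control rats by a small margin, 108 against 109 CPM. This gave a log2 fold change of −0.24 (SE 0.099, unadjusted p = 0.0367, adjusted p = 0.221, edgeR), and it was −0.19 at 3 weeks (adjusted p = 0.401). Neither passed the test.

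Of the 3 receptors, edgeR and DESeq2 called 0 in any comparison. Over all genes, edgeR called 1.65% at 3 weeks, 5.13% at 7 weeks and 0.483% between them, and DESeq2 4.79%, 8.49% and 3.38%. At an unadjusted p under 0.05 edgeR had 1, Bmpr1a, lower at 7 than at 3 weeks, where 7.46% of all genes were. Bmpr1a, a type I receptor found in most tissues, was at 35.2, 34.7 and 35.7 CPM in control rats, 43.7, 38.1 and 38.6 in IDPN-3wk rats and 30.0, 35.0 and 29.9 in IDPN-7wk rats. The IDPN-3wk rats were above all others, and the IDPN-7wk rats overlapped the control rats. The log2 fold change came to 0.19 (95% interval −0.10 to 0.48) at 3 weeks and −0.16 (−0.44 to 0.13) at 7 weeks, and between the 2 IDPN groups −0.34 (SE 0.130, unadjusted p = 0.0242, adjusted p = 0.284, edgeR).

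Bmpr2, the type II receptor dedicated to BMPs, ranged from 49.9 to 56.7 CPM in control rats, from 48.1 to 62.9 in IDPN-3wk rats and from 38.6 to 52.7 in IDPN-7wk rats. The groups overlapped, and its log2 fold changes were 0.02 (95% interval −0.32 to 0.36) and −0.20 (−0.54 to 0.14). For Bmpr1a and Bmpr2 these intervals leave out a log2 fold change of −1 at either time.

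Bmpr1b, the other type I receptor, had few counts, and it was at or near 0 in 3 libraries of 2 groups. It had 129, 63 and 0 counts in control rats, 0, 6 and 35 in IDPN-3wk rats and 113, 84 and 69 in IDPN-7wk rats. The libraries at 0, 0 and 6 counts were the 3 with fewer detected genes. A count of 0 allows up to 0.0789 CPM in control 3 and 0.0797 CPM in IDPN-3wk 1 (3 counts of the unscaled library, counting error only), while the other 6 libraries were at 1.08 to 3.48 CPM. The log2 fold changes, −2.09 (95% interval −5.66 to 1.48) and 0.08 (−3.30 to 3.46), were too imprecise to show a direction, and with the library set in the fit they were 0.13 and −0.16.

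With all 9 libraries, 0 of the 4 Id genes were DEGs at 3 weeks, at 7 weeks or between them, in edgeR and in DESeq2. The exception without all libraries was Id4, described with its values. Over all genes the shares called were 1.65%, 5.13% and 0.483% in edgeR and 4.79%, 8.49% and 3.38% in DESeq2. At such shares 0 of 4 says little about the Id genes. At an unadjusted p under 0.05 edgeR had 1 higher at 3 weeks, where 7.12% of all genes were, 1 lower at 7 weeks, where 10.7% were, and 3 lower at 7 than at 3 weeks, where 7.46% were. The middle of their fitted log2 values was 0.27 at 3 weeks and −0.05 at 7 weeks, beside medians of −0.00047 and 0.0097 over all genes tested. All 4 fitted values were above 0 at 3 weeks, and 3 of 4 were below 0 at 7 weeks. Among the libraries with fewer detected genes, Id1, Id2, Id3 and Id4 differed by 0.33, 0.43, 0.47 and −0.21 at 3 weeks. Among the others, with 1 IDPN-3wk rat, the values were 0.03, 0.10, 0.29 and −0.78. From 3 to 7 weeks the fitted values with all libraries were −0.34, −0.09, −0.44 and −1.94. Among these others, again with 1 IDPN-3wk rat, the differences were −0.11, −0.10, −0.31 and 0.08. The set with fewer detected genes held no IDPN-7wk rat. The within-set values are differences of mean log2(CPM + 1). The 3-week signs, and the 3-to-7-week sizes for Id1, Id3 and Id4, thus depended in part on the library set.

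Id1, the Id gene most often used to read BMP activity, was at 71.1, 55.1 and 63.7 CPM in control rats, 76.2, 84.3 and 64.0 in IDPN-3wk rats and 58.8, 64.5 and 54.6 in IDPN-7wk rats. The 3 groups overlapped, with the highest value in IDPN-3wk 2. Its log2 fold change was 0.24 (95% interval −0.07 to 0.56) at 3 weeks and −0.09 (−0.41 to 0.22) at 7 weeks, adjusted p = 0.442 and 0.802 in edgeR's test. At 7 weeks the interval thus reached down to 0.754 of the control level, and a fall of the size of that of Bmp2 lay outside it.

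Id3, which is also high in the endothelium of vessels, was at 125, 117 and 125 CPM in control rats, 151, 197 and 148 in IDPN-3wk rats and 87.3, 140 and 138 in IDPN-7wk rats. The IDPN-3wk rats were above all rats of both other groups, and the IDPN-7wk rats lay on either side of the control rats. The log2 fold change came to 0.44 (95% interval 0.04 to 0.84, unadjusted p = 0.0348, adjusted p = 0.273, edgeR) at 3 weeks and −0.01 (−0.40 to 0.39) at 7 weeks. From 3 to 7 weeks it was −0.44 (−0.84 to −0.04, adjusted p = 0.312), and none of these passed the test.

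Vessel markers were not level across these libraries. Summed over 7 endothelial markers, control rats had 355 to 397 CPM, IDPN-3wk rats 386 to 489 and IDPN-7wk rats 324 to 499. The sum was lowest in IDPN-7wk 1, where Id3 was lowest, but highest in IDPN-7wk 2, where Id3, at 140 CPM, was below every IDPN-3wk rat. Of the 7 markers, edgeR called 0 at 3 weeks and 1, higher, at 7 weeks, with adjusted p = 0.0494. Of all genes it called 1.65% and 5.13%. The part of these markers in the values of Id3 was not tested.

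Id2, whose product also binds the retinoblastoma protein, was at 14.2, 16.3 and 11.6 CPM in control rats, 20.2, 12.4 and 16.3 in IDPN-3wk rats and 13.5, 13.5 and 19.0 in IDPN-7wk rats. The 3 groups overlapped. The log2 fold changes were 0.22 (95% interval −0.32 to 0.77) and 0.13 (−0.41 to 0.68).

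Id4, the Id gene known from neural and glial precursors, was at 44.4, 49.8 and 176 CPM in control rats, 173, 134 and 27.0 in IDPN-3wk rats and 28.5, 24.6 and 33.7 in IDPN-7wk rats. The 3 libraries above 100 CPM were those with fewer detected genes, across 2 groups, and every other library was below 50 CPM. With the library set in the fit, Id4 was 4.59-fold higher in that set (log2 2.20, SE 0.194). No other member apart from Bmpr1b separated the library sets without overlap. Tcf3, which encodes an E protein that Id4 binds, was split in the same way, at a mean of 54.2 CPM in the set and 14.3 CPM outside it. The E protein genes Tcf4 (125 and 122 CPM) and Tcf12 (22.8 and 20.6 CPM) overlapped between the sets. Over all genes 4.97% were higher in every library of the set.

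The fits of Id4 had wide intervals. At 3 weeks the log2 fold change was 0.31 (95% interval −1.11 to 1.72) with all libraries, −0.49 with the library set in the fit and −0.80 (adjusted p = 0.121) without the set, which left 1 IDPN-3wk rat. At 7 weeks all 3 IDPN rats were below all 3 control rats, and the value was −1.64 (SE 0.654, unadjusted p = 0.0309, adjusted p = 0.202, edgeR) with all libraries. Without the set, in 2 control rats against 3 IDPN-7wk rats, it was −0.71 with adjusted p = 0.0176 (edgeR), which made it a DEG. In that setting 9.56% of all genes were DEGs, against 5.13% with all libraries. Between 7 and 3 weeks the Id4 value was −1.94 (adjusted p = 0.234, edgeR), and it was 0.09 without the set. It became a DEG at −2.41 (adjusted p = 0.0466, edgeR) without IDPN-3wk replicate 3, which left IDPN-3wk rats of that set alone. There 2.81% of all genes were DEGs, against 0.483% with all libraries.

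**Figure D2:**
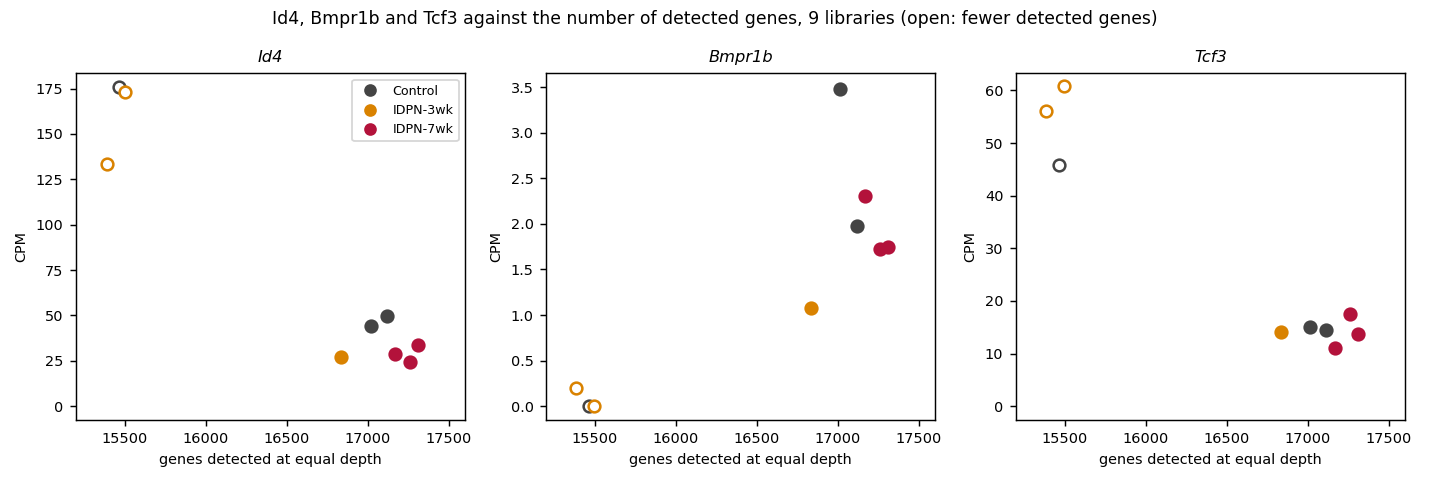
CPM of Id4, Bmpr1b and the E protein gene Tcf3 against the number of genes detected at equal depth, 1 point per library, colored by group, with open circles for the set with fewer detected genes. The 3 open circles lie at 134 to 176 CPM for Id4, at 0 to 0.202 CPM for Bmpr1b and at 45.9 to 60.8 CPM for Tcf3, apart from all filled ones.

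Counted by groups that do not overlap, 1 of the 10 genes was lower at 3 weeks (Bmp2) and 2 were higher (Bmpr1a and Id3), where 10.9% of all genes tested were lower and 8.78% higher without overlap. At 7 weeks 3 were lower (Bmp2, Bmp7 and Id4) and 0 higher, against 17.1% and 17.2% of all genes. From 3 to 7 weeks 3 were lower (Bmp2, Bmpr1a and Id3) and 1 higher (Bmpr1b), against 8.92% and 12.1%. In that comparison 0 of the 10 were DEGs in edgeR, where 0.483% of all genes were, while DESeq2 called 1, Bmp2. At an unadjusted p under 0.05 edgeR had 5, all lower, where 7.46% of all genes were lower at that p. The set with fewer detected genes held IDPN-3wk rats but no IDPN-7wk rat, so time and library set differ together there.

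**Figure D3:**
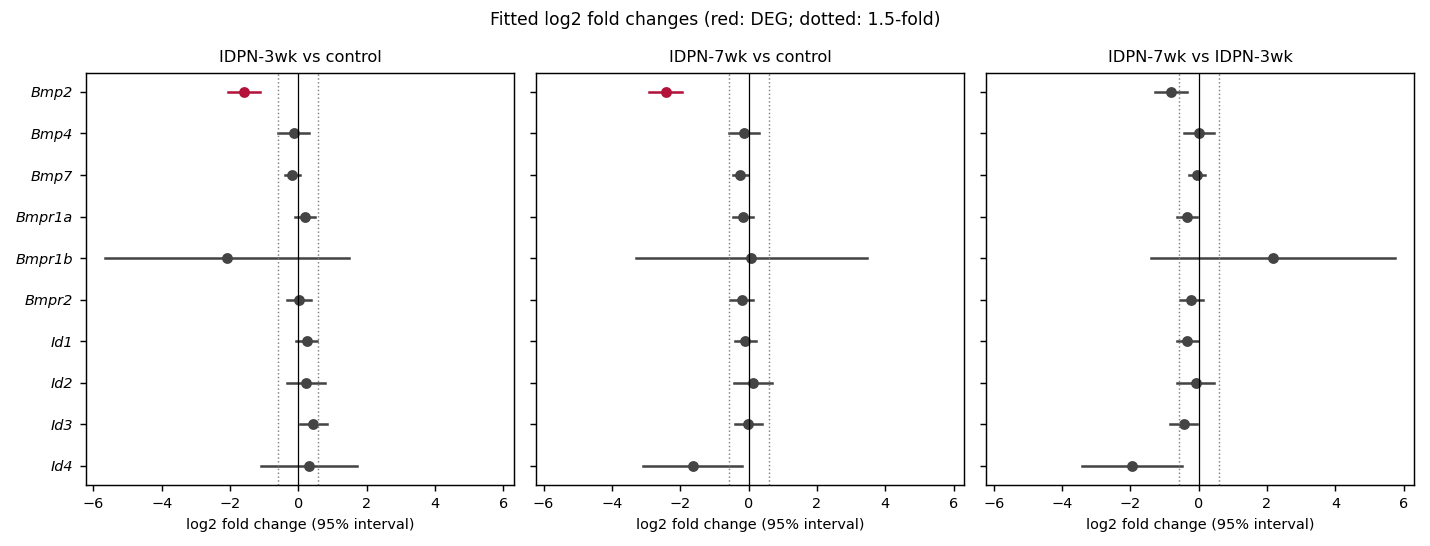
Fitted log2 fold changes of the 10 genes with 95% intervals in the 3 comparisons, with DEGs in red and dotted lines at a 1.5-fold change. Bmp2 is the only red point, at −1.60 and −2.43, and the Id1, Id2 and Id3 intervals against control rats stay between −0.41 and 0.84.

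To compare each Id gene with Bmp2 inside the same library, the log2 ratio of both levels was taken. For Id1 it ran from 0.37 to 0.84 in control rats, 2.20 to 2.83 in IDPN-3wk rats and 2.65 to 3.07 in IDPN-7wk rats. The control rats were below every IDPN rat, and the mean difference was 1.87 at 3 weeks and 2.33 at 7 weeks. Id2 and Id3 also separated without overlap, with mean differences of 1.83 and 2.05 at 3 weeks and 2.55 and 2.38 at 7 weeks. Each of these 6 differences had an exact two-sided permutation p of 0.1, the smallest that 3 against 3 rats allow (adjusted p = 0.133 over 8 comparisons). The Id4 ratio overlapped between the groups at both times, with mean differences of 1.85 and 1.07 and an exact permutation p of 0.2. These ratios mostly restate the fall of Bmp2, whose own mean log2 CPM differed from control by −1.62 and −2.42. Of 13669 genes with counts in every library, the ratio to Bmp2 was above control without overlap for 85.4% at 3 weeks and 97.2% at 7 weeks, with median differences of 1.62 and 2.43, so the separation is not particular to the Id genes.

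**Figure D4:**
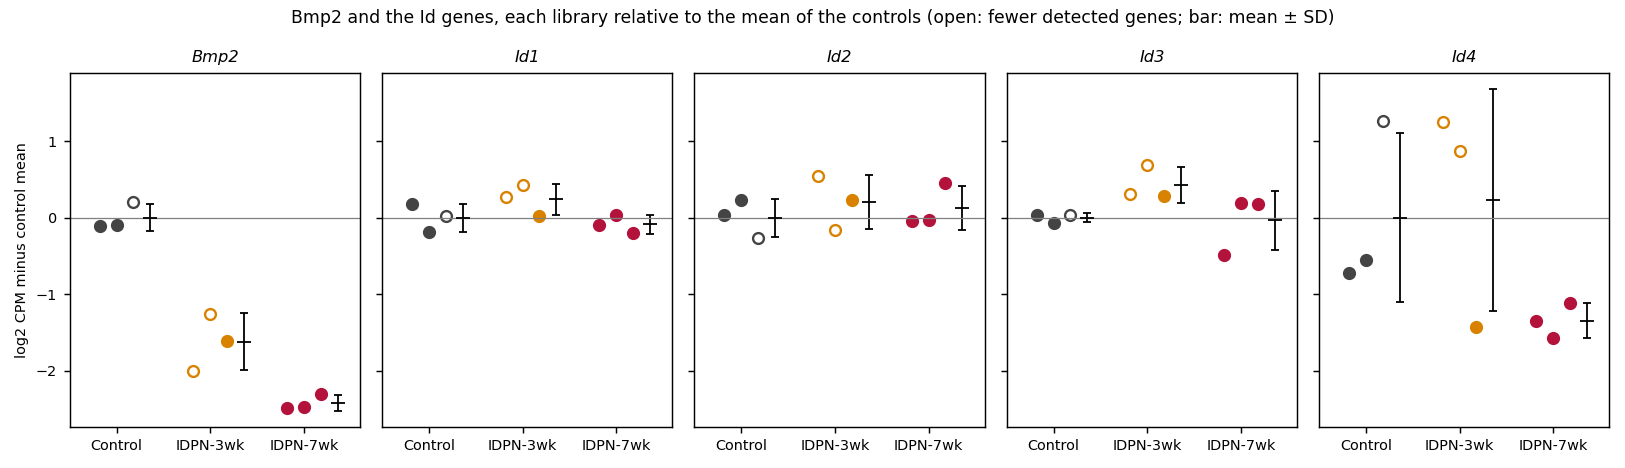
Bmp2 and the 4 Id genes in each library as log2 CPM minus the mean log2 CPM of the control rats, with open circles for libraries with fewer detected genes and bars for mean ± SD. Bmp2 steps down to below −1 in all IDPN rats, while every IDPN value of Id1, Id2 and Id3 lies within 1 log2 unit of the control mean.

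Other genes of the pathway were taken from 6 lists of 76 symbols, of which 75 were in the table and 60 were tested. Of these 60, edgeR called 1 lower, Grem1, and 0 higher at 3 weeks, a share close to the 1.65% of all genes. DESeq2 called Grem1 lower and Sostdc1 higher at 3 weeks, where it called 4.79% of all genes. At 7 weeks edgeR called 2 lower and 1 higher, a share close to the 5.13% of all genes, and DESeq2 called 7 lower and 1 higher. The 7 were Grem1, Tob1, the ligand Bmp5, the co-receptor Rgmb, the antagonist Chrdl1, the target Hes1 and the HC factor Atoh1, and 8.49% of all genes were called in DESeq2. From 3 to 7 weeks edgeR called 0, and DESeq2 called 2 lower, Bmp5 and Tcf3 (0.483% and 3.38% of all genes were called). Tcf3 was at 60.8 and 56.1 CPM in IDPN-3wk 1 and 2, which are in the set with fewer detected genes. In IDPN-3wk 3 it was at 14.2 CPM, within the 11.0 to 17.5 CPM of the IDPN-7wk rats. At an unadjusted p under 0.05 edgeR had 6 lower and 2 higher at 3 weeks (8.63% and 7.12% of all genes), 10 and 3 at 7 weeks (10.7% and 8.55%), and 8 and 1 from 3 to 7 weeks (7.46% and 6.33%). Over the 60 genes the median was −0.02 at 3 weeks and −0.19 at 7 weeks.

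Sostdc1, a secreted antagonist of BMP and Wnt ligands, was at 20.2, 35.9 and 23.7 CPM in control rats, 40.3, 48.5 and 67.3 in IDPN-3wk rats and 56.5, 79.9 and 86.3 in IDPN-7wk rats. All IDPN rats were above all control rats, and the 2 IDPN groups overlapped. The log2 fold change came to 0.97 (SE 0.262, adjusted p = 0.101) at 3 weeks and 1.48 (SE 0.264, adjusted p = 0.00926, edgeR) at 7 weeks, when it rose to 2.79 times the control level. The 7-week call held in all 16 alternatives.

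Grem1, an antagonist that binds Bmp2 and Bmp4, was at 56.4, 41.9 and 50.0 CPM in control rats, 31.6, 21.2 and 16.6 in IDPN-3wk rats and 21.8, 26.9 and 26.1 in IDPN-7wk rats. Both IDPN groups were below the control rats and overlapped each other. It was downregulated with log2 fold changes of −1.10 (SE 0.231, adjusted p = 0.0445) and −0.99 (SE 0.230, adjusted p = 0.0329, edgeR). Both calls were close to the threshold and held in 7 and 9 of 16 alternatives, with fitted values between −1.57 and −0.88. The 3-week call was lost on leaving out any 1 library other than IDPN-3wk 1, and with only the 2 groups compared in the fit. The 7-week call was lost without any 1 control or IDPN-7wk rat, and with the library set in the fit.

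Tob1, an antiproliferative protein that represses Smad activity, was at 48.9, 45.1 and 42.8 CPM in control rats, 35.8, 31.5 and 22.5 in IDPN-3wk rats and 14.4, 23.0 and 28.6 in IDPN-7wk rats. Every IDPN rat was below every control rat. The log2 fold change came to −0.61 (adjusted p = 0.274) at 3 weeks and −1.05 (SE 0.252, adjusted p = 0.0367, edgeR) at 7 weeks, a call that held in 10 of 16 alternatives. It was lost without any 1 control rat, without IDPN-7wk 1 or 2, and with the library set in the fit, while the fitted values over all alternatives stayed between −1.28 and −0.82.

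**Figure D5:**
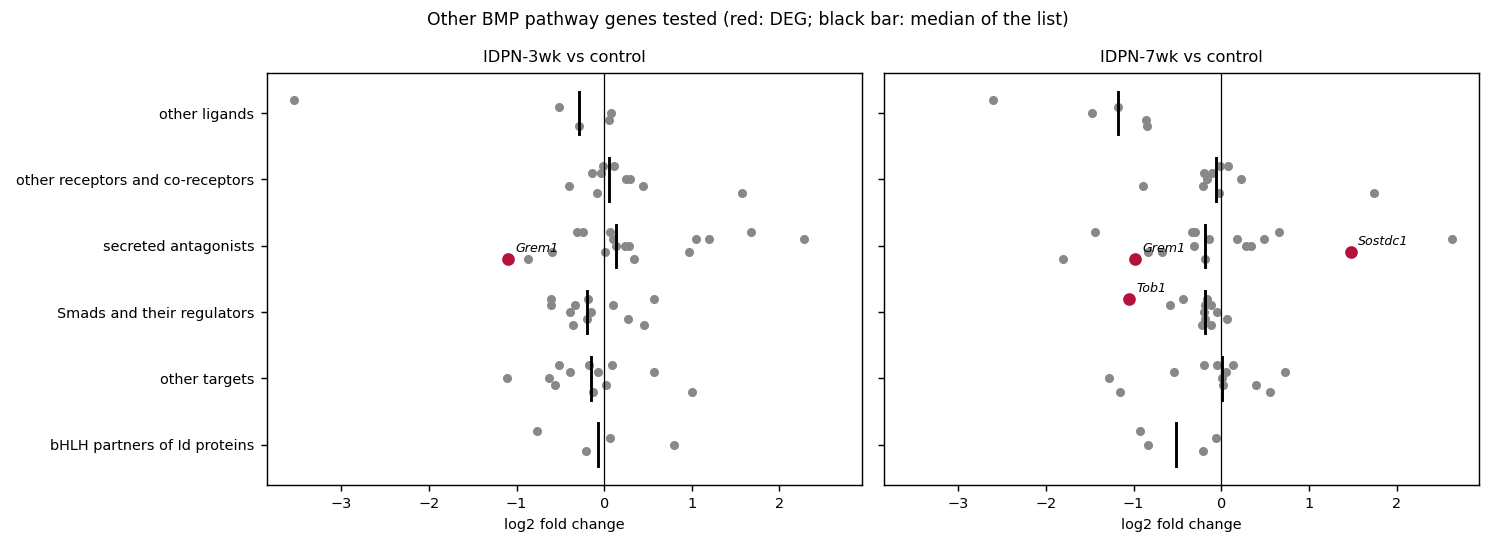
Fitted log2 fold change of the 60 other pathway genes tested, 1 point per gene, by list, at 3 and at 7 weeks, with DEGs in red and the median of each list as a black bar. Grem1 is red at both times and Sostdc1 and Tob1 at 7 weeks, and the medians of the lists lie between −1.18 and 0.14.

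The gene with the highest mean CPM of each list, a choice that also depends on gene length, did not pass the test at either time in the main fit. Bmp3, a ligand that opposes other BMPs, had a mean of 13.0 CPM in control rats and 5.77 in IDPN-7wk rats (log2 −1.18, adjusted p = 0.254, edgeR). With only the 2 groups compared in the fit it was called lower, where 8.19% of all genes were called. At 7 weeks Tgfbr3, the betaglycan co-receptor, had a log2 fold change of −0.03, Twsg1, an extracellular modulator of BMP binding, 0.18, Ctdsp1, a phosphatase that acts on Smads, −0.16, Dlx5, a homeobox target, 0.01, and Tcf4, an E protein gene, −0.21. Of the 12 other target genes tested, which include the inhibitory Smads, 0 were DEGs at either time in edgeR. Over all genes tested 1.65% and 5.13% were DEGs at these times. At an unadjusted p under 0.05 edgeR had 0 of the 12 at 3 weeks and 1, lower, at 7 weeks. The shares of all genes at that p were 15.8% and 19.3%. DESeq2 called 1 of the 12, Hes1, lower at 7 weeks, where it called 8.49% of all genes.

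Over the 9 libraries, the genes whose log2(CPM + 1) followed Bmp2 most closely, of 15516 compared, were Meltf (Pearson r = 0.986), Calm2, Aig1, Atp1b1 and Bdnf (r = 0.981). All 5 had their highest mean in control rats and their lowest in IDPN-7wk rats. Bdnf, a neurotrophin made by vestibular sensory epithelia, went from a mean of 118 CPM in control rats to 55.0 and 39.5. Those nearest to Id1 were Dgat1 (r = 0.939), Clpp, Ppidl1, Tmem115 and Lpar2 (r = 0.924), with their highest mean in IDPN-3wk rats. Bmp2 and Id1 had r = 0.06 with each other. These are descriptions over libraries that fall in groups and differ in depth and in the number of detected genes. With that number at equal depth, Id1 had r = −0.716 and Bmp2 r = −0.284.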

How the data were processed

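Each library was prepared with SMARTseq2, without molecular identifiers and with no strand stated. The authors aligned reads to Rnor6.0 (STAR) and derived gene counts from the alignments (RSEM; versions 2.5.3a and 1.3.0 in the submitters' processing notes); the deposited table holds these expected counts as whole numbers. All 9 columns were used. Counts were filtered (filterByExpr), scaled (TMM) and fitted in 1 model of 3 groups with edgeR 4.0.16 (robust quasi-likelihood F test, R 4.3.3), with Benjamini-Hochberg adjustment over 15517 genes. The script was tested on simulated data. The study itself used DESeq2, run here (1.42.0) as an alternative, beside RLE scaling, other filters, 2 groups at a time, the library set as covariate or left out, and each replicate left out. Replicate numbers were given in accession order and pair no animals. The upper limits in CPM given for libraries without counts of a gene cover counting error only. The intervals of the fold changes rest on the standard errors of the fitted model, which include the spread between rats.

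The members and lists were chosen with earlier results of these data known. Genes named besides the members were the DEGs and the gene of highest mean CPM of each pathway list and the 5 nearest to Bmp2 and to Id1. Bmp5, Rgmb, Chrdl1, Hes1, Atoh1, Tcf3, Tcf12, Ptprq, Otof and Otog were named after their values were seen. No promoter of Bmp2, the called member, was in the reference table, so those of the Id genes were shown instead, with TATAAA and CCAAT added to the motifs.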

Additional observations from a re-analysis of the deposited data

How the results depend on the processing

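Bmp2 was a DEG at 3 and 7 weeks in all 16 alternatives. The number of members called differed in 3 places: 2 at 7 weeks without the libraries with fewer detected genes (Bmp2 and Id4), and, from 3 to 7 weeks, 1 with DESeq2 (Bmp2) and 1 without IDPN-3wk replicate 3 (Id4), where leaving out 1 library gave 0 to 1. In these 3 places 9.56%, 3.38% and 2.81% of all genes tested were called, against 5.13%, 0.483% and 0.483% in the main fit. The other members were uncalled apart from these calls, and their values changed sign 33 times. With the library set in the fit, the log2 values that turned were 0.13, −0.030 and −0.49 at 3 weeks for Bmpr1b, Bmpr2 and Id4, −0.16 and 0.041 at 7 weeks for Bmpr1b and Id3, and 0.062 and −0.28 between them for Bmp4 and Bmpr1b. Without that set they were 0.19, −0.15 and −0.80 at 3 weeks for Bmp4, Bmpr2 and Id4, 0.022, −0.51 and 0.0055 at 7 weeks for Bmp4, Bmpr1b and Id3, and 0.092 between them for Id4. Bmp4 from 3 to 7 weeks was 0.0051 with no filter and 0.0029 with at least 10 counts in every library. Leaving out 1 library at a time moved Bmp4 between −0.27 and 0.026 at 3 weeks, the same at 7 weeks, and −0.13 and 0.091 between them. It moved Bmpr2 between −0.11 and 0.093 and Id4 between −0.17 and 1.24 at 3 weeks. At 7 weeks it moved Bmpr1b between −0.50 and 0.96, Id2 between −0.050 and 0.25 and Id3 between −0.12 and 0.19, and from 3 to 7 weeks Id2 between −0.27 and 0.093. None of these values was called, and the cause of the changes was not tested.

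Bmpr1b could not be tested with at least 10 counts in every library. No paired analysis was possible because the labels give the rats no shared replicate numbers. Where a lone rat remained in a group, its spread was taken from the other groups. With 3 rats per group, the intervals of Id4 and Bmpr1b span changes larger than that of Bmp2 in at least 1 comparison with control rats.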
